A study of Mus musculus with 4 samples.

Results

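Collagens are proteins of the extracellular matrix built from 3 chains wound around each other, and each chain is the product of its own gene. In skin, epithelial cells sit on a basement membrane whose network is made of collagen IV. Collagen VII forms anchoring fibrils that fasten that membrane to the dermis, and fibrils of collagens I, III and V fill the dermis beneath, where fibroblasts make most of them. The genes described here are those that the array files name Col, a number, a and a number, Col17a1 left out. They comprise 39 genes on 58 probes, of 31896 gene names on 39429 probes, and 16 of the 39 were bright enough to be tested, of 17376 genes tested.

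Gene expression was measured in skin epithelial cells of adult C3H/HeN mice that had been sorted for CD49f, an integrin chain of basal cells, and for CD34, which together mark follicle bulge cells. The 0p cells came straight from such a sort of primary cells. The 15p cells had gone through 15 successive cultures of 10 days with the growth factor Wnt-3a and were re-sorted after each, 50000 cells being plated on a 60-mm dish with a collagen type I coat. Wnt-3a is listed as the treatment of both RNAs, and the text used here does not settle whether 0p cells met it in culture. Each of 4 arrays carried both RNAs, in 2 biological replicates that were each run with the dyes 1 way and exchanged. Nothing in the labels ties a replicate to an animal or culture of its own, so p-values rest only on spread between these replicates, which may be technical. In the limma fit that spread is largely pooled over all genes, with 8.88 prior against 1 residual degree of freedom. In such bulk RNA, fewer cells of a type and less RNA per cell cannot be told apart. The comparison addressed how far transcripts changed over serial culture, here for the chains of the matrix that the dishes were coated with and that skin cells rest on.

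The sorted cells carried the basal keratinocyte markers, all 7 of which were tested. Krt5 stood at 0.00042 ± 0.036, Itga6, which encodes CD49f, at 0.025 ± 0.041 and Krt14 at 0.19 ± 0.12 (mean log2 ratio of 15p over 0p ± SD, n = 2), with adjusted p-values from limma of 0.999, 0.930 and 0.749. Krt15, another basal keratin, stood at 0.17 ± 0.033 (adjusted p = 0.749). With Krt14 it was 1 of 2 on the list at an unadjusted p under 0.05, against 6.31% of all genes. With 15p in Cy5 and then Cy3, Krt15 stood at 0.31 and -0.012 in replicate 1, and 0.48 and -0.093 in replicate 2. In the same order Krt14 stood at 0.085, 0.12, 0.73 and -0.18, and Krt5 at 0.23, -0.18, 0.34 and -0.39. For Krt5 the mean log2 ratio of Cy5 over Cy3 was 0.28 (adjusted p = 0.0362 in limma). Cd34, the other sorting marker, was well above background on 0 of 4 arrays in 15p RNA and on 1 of 4 in 0p RNA, so its transcript did not check the sort. Depth differed little between arrays except on 1: between 55.5% and 59.8% of spots were well above background on 3 arrays, and 65.1% (Cy3) and 68.3% (Cy5) on the replicate 2 array with 15p in Cy3. The number of arrays limits the precision. Across all genes tested, limma with Benjamini-Hochberg adjustment called 0 genes (lowest adjusted p = 0.749, 1096 genes at an unadjusted p under 0.05). The mean ratios of 15p over 0p of the 2 replicates correlated at 0.089. Turned by the labelled dyes, the ratios of a dye swap's 2 arrays correlated at -0.55 in replicate 1 and -0.40 in replicate 2. Each correlation was taken over 17376 genes, and a gene does not count as a replicate. If the labels hold, genes tended to be high in the same dye, not in the same RNA. Whether the labelled dye directions were right was not tested, and every 15p over 0p ratio and dye part here rests on them.

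The hallmark of a collagen chain can be read directly in some of the probes. A triple helix needs a glycine at every step of 3 residues, and all glycine codons begin with GG, so a helix-coding stretch shows GG at steps of 9 bases. Such a run, with GG at 3 or more consecutive steps and no stop codon in that frame, was found on the sense strand in 6 of the 58 collagen probes (10.3%), and in 178 of all 39429 probes (0.451%). Examples from different classes are printed 5′ to 3′ as the deposited files hold them, with the GG of the run in capitals, because they show what kind of sequence these spots capture.
Col4a4: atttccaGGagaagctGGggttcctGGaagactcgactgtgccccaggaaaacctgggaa
Col15a1: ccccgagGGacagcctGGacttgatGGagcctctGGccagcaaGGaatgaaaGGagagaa
Col16a1: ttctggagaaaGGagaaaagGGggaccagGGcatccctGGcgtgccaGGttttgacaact
Col25a1: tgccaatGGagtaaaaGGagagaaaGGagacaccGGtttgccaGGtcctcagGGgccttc
In mouse build mm9 the files place them at chr1:82515563-82515622 (minus strand), chr4:47283786-47283845 (plus strand), chr4:129756457-129756516 (plus strand) and chr3:130270497-130270556 (plus strand). The Col15a1 and Col25a1 probes had GG at all 6 steps, and the Col16a1 probe at 5 of 7. In the Col4a4 probe the run ended after 3 of 6 steps, and this was the 1 of the 6 that was well above background on all 4 arrays. The other collagen probes held no such run. The letters AATAAA or ATTAAA, the usual signal for transcript ends, were found in 10 of 58 collagen probes (17.2%) and in 6602 of all probes (16.7%), on the same strand. Among the 20 collagen probes bright enough for testing they were found in 7 (35%), which include 2 probes each of Col16a1 and Col18a1. The share among all probes bright enough was not computed, so the 35% has no like comparison. The median GC content was 42.5% for the collagen probes and 41.7% for all probes.

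Detection on all 4 arrays held for 5 of 6 collagen IV chains and Col7a1, and also for 5 of 9 fibril-associated chains. Of the chains of dermal fibril collagens I, III and V, Col3a1 alone was detected on all 4 arrays. It was itself dim, at 1.58 to 2.63 times the negative control median. A gene was tested if a probe was well above background, by the scanner software's own flag, on all 4 arrays in at least 1 RNA. That held for 16 of 39 collagen genes (41.0%), against 54.5% of all gene names. All 16 were above background on 4 of 4 arrays in both RNAs, as were 16773 of the 17376 genes tested. No tested chain was thus detected in one RNA and missing from the other by this measure, as for most genes. The 16 were Col4a1, Col4a2, Col4a4, Col4a5 and Col4a6 of the basement membrane network, Col7a1 of the anchoring fibrils, Col18a1 of the multiplexins, Col8a1 of the short-chain networks, Col2a1 and Col3a1 of the fibril-forming chains, Col6a1 of the beaded filaments, and the fibril-associated chains Col9a2, Col9a3, Col12a1, Col16a1 and Col22a1. A further 8 genes (20.5%, against 27.8% of all gene names) stayed below this mark on each array in either RNA. They were Col5a1, Col5a2, Col5a3, Col11a1 and Col24a1, which form or start fibrils, Col10a1 of growth-plate cartilage, Col19a1 and Col28a1.

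**Figure D1:**
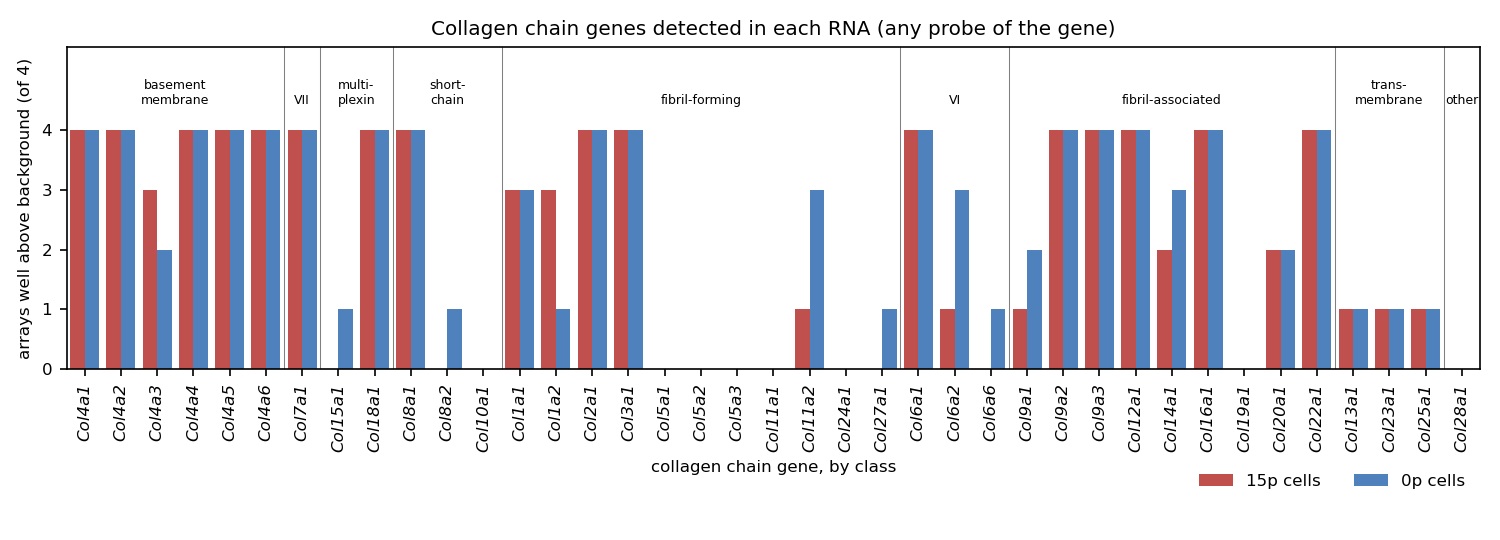
Arrays on which any probe of a gene was well above background (y axis, of 4), for the 39 collagen chain genes (x axis) grouped by class, with red bars for 15p cells and blue bars for 0p cells. The 16 tested genes stand at 4 in both, 8 genes stand at 0 in both, and 15 lie between.

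The other 15 genes (38.5%) were above background on some arrays. Col1a1 and Col1a2 encode the chains of collagen I, the protein that coated the dishes and the main collagen of dermis. Col1a1 was above background on 3 of 4 arrays in both RNAs, with spot intensities of 70.1 to 92.4 in 15p RNA and 72.5 to 141 in 0p RNA. Col1a2 was above background on 3 arrays in 15p RNA and 1 in 0p RNA, with intensities of 64.5 to 88.1 and 63.2 to 109. The ranges of both genes overlapped between the RNAs and lay at 1.27 to 2.15 times the median of the negative control spots. Col4a3, the partner of Col4a4 and Col4a5 in a collagen IV network, was above background on 3 arrays in 15p RNA and 2 in 0p RNA. Col6a2, a chain of collagen VI, and Col11a2, a chain of cartilage fibrils, were each above background on 1 array in 15p RNA and 3 in 0p RNA, and Col14a1, which binds fibrils, on 2 and 3. Col9a1 was at 1 and 2 arrays and Col20a1 at 2 and 2, counting any of their probes.

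The transmembrane chains Col13a1, Col23a1 and Col25a1 passed the background flag once in each RNA, and Col6a6, Col8a2, Col15a1 and Col27a1 once in 0p RNA and on 0 arrays in 15p RNA. By gene, 8 of the 15 were above background on more arrays in 0p than in 15p RNA, 2 on more in 15p and 5 on equal numbers. Such counts were not made over all genes, so they are not read as particular to collagens. Of the 15, 13 were above background on the replicate 2 array with 15p in Cy3, and 5 on that array alone. That array also had the largest share of all spots above background, 68.3% for 0p RNA in Cy5 and 65.1% for 15p RNA in Cy3. Its part in these counts was not tested. On it, 33 of 58 collagen probes were above background in 15p RNA and 37 in 0p RNA. On the other 3 arrays the numbers were 21 to 24 and 22 to 28.

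Most markers of dermal fibroblasts and chondrocytes were not detected on all arrays. Of 12 dermal fibroblast markers other than collagens, 8 (Dcn, Dpt, Fap, Lum, Pdgfra, Pdgfrb, Prrx1 and Thy1) were not above background on any array, and 3 (Fbln1, Twist2 and Vim) were tested. The summed intensity of the 12 was 2147 to 4604 in 15p RNA and 1994 to 5002 in 0p RNA, against 570.1 to 902 for as many negative control spots. Of 5 chondrocyte markers 0 were tested, and Cnmd, Hapln1 and Matn3 were not above background on any array. Acan, the large proteoglycan of cartilage, was above background on 3 arrays in each RNA, and Comp on 0 in 15p and 1 in 0p. The chondrocyte sum was 285 to 379.7 in 15p RNA and 276 to 447 in 0p RNA, against 238 to 376 for control spots. Endothelial cells and pericytes also make collagen IV: 4 of 7 endothelial and 2 of 6 pericyte and smooth muscle markers were tested, with endothelial sums of 2878 to 5977 in 15p RNA and 3050.4 to 6232 in 0p RNA, against 333 to 526 for control spots. The pericyte and smooth muscle sum was 845 to 1555 in 15p RNA and 839 to 1439 in 0p RNA, against 285 to 451 for control spots. Of the other lists, 3 of 6 immune, 2 of 5 melanocyte and 2 of 4 Schwann cell markers were tested. None of the tested markers on these lists was called by limma after adjustment, and what these cells contributed to the collagen levels was not tested.

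Among the 16 tested collagens 0 were called higher and 0 lower in 15p cells, where limma also called 0% of all genes in each direction. Their mean log2 ratios of 15p over 0p ran from -0.052 to 0.11, with 8 above and 8 below 0. The median was -0.0013, beside 0.0025 over all genes tested, whose ratios ran from -0.59 to 0.47. The lowest adjusted p was 0.750. An unadjusted p under 0.05 was reached by 0 of the 16, against 6.31% of all genes. The 95% intervals of all 16 lay within 1.5-fold in either direction, as did those of 17318 of the 17376 genes tested. The widest of the 16 reached 0.25 on the log2 scale, a 1.19-fold change. The missed threshold does not show that levels were equal. The intervals bound the difference between these replicates only, and they hold for this processing. With Agilent's processed signals Col3a1 stood at 0.17, Col12a1 at 0.16 and Col9a2 at -0.10, farther from 0 than in the reported fit. Col7a1 stood at -0.038, nearer to 0, and 0 of the 16 were called. A ratio beyond 0.1 in either direction was seen for 1 of 16 collagens (6.25%) and 15.4% of all genes.

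**Figure D2:**
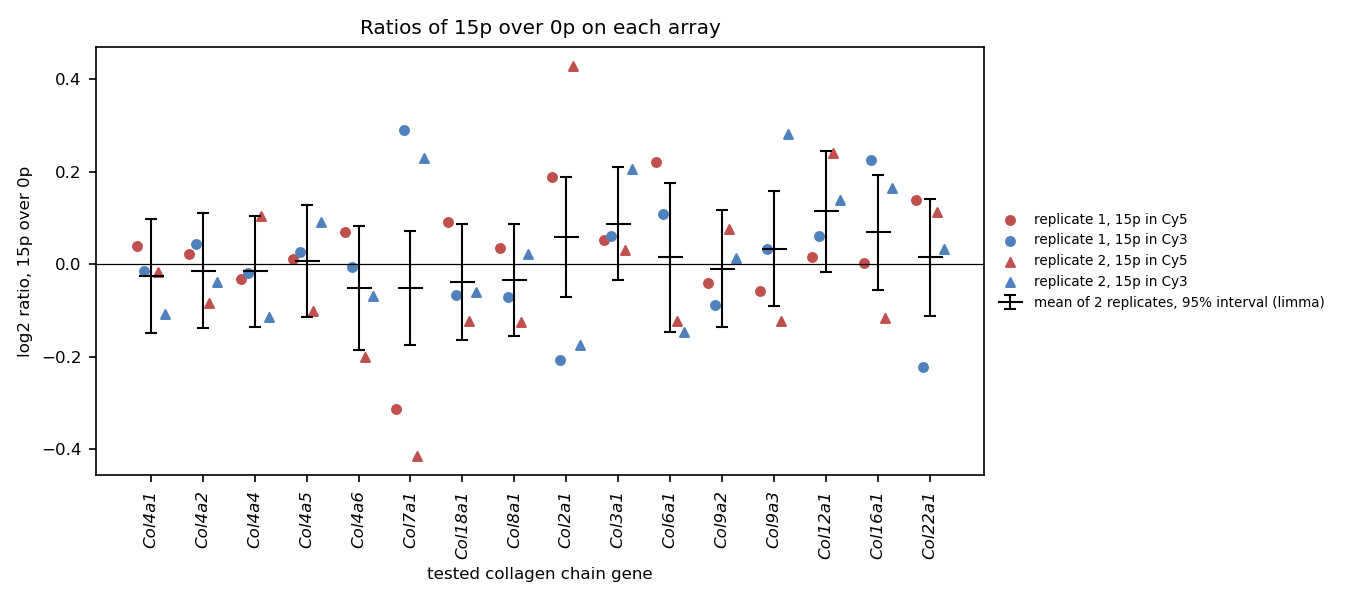
Log2 ratio of 15p over 0p (y axis) of the 16 tested collagen chain genes (x axis) on each array, with circles for replicate 1, triangles for replicate 2, red for 15p in Cy5 and blue for 15p in Cy3; black dashes are the mean of 2 replicates with limma's 95% interval. Every interval spans 0, and red and blue lie on opposite sides of 0 for Col2a1, Col7a1 and Col9a3.

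In the following, the 4 ratios of a gene are given in a fixed order, replicate 1 with 15p in Cy5 and then in Cy3, followed by replicate 2 with 15p in Cy5 and then in Cy3. The means are of the 2 replicates, each the mean of its swapped arrays, and the adjusted p-values are from limma over all genes. Positions are those of the probe in mm9, and exon or UTR annotation in that build was not used here. Intensities are mean spot intensities before correction. They depend on the dye and on the probe, so they are not compared between genes.

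Collagen IV exists as trimers of the Col4a1 and Col4a2 chains in nearly all basement membranes, and of Col4a3, Col4a4, Col4a5 and Col4a6 chains in specialised ones. Epidermal basement membrane is known to hold the Col4a5 and Col4a6 chains beside the common pair. These genes lie in head-to-head pairs, each sharing the region between its start sites. The ratios of Col4a1 (chr8:11199009-11199068, minus strand) were 0.039, -0.014, -0.017 and -0.11. Of the 4, the first was the only one above 0, and the mean was -0.025 ± 0.053 (n = 2, adjusted p = 0.933). Its intensities were 1566 in 15p and 672 in 0p RNA on that array, and 714 and 1533 on the swapped one, so the Cy5 channel was the brighter in both. In replicate 2 they were 1521 and 1158, then 1169 and 2142, again brighter in Cy5.

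Col4a2, the partner in the common trimer (chr8:11448840-11448899, plus strand), had ratios of 0.021, 0.045, -0.083 and -0.038. Both arrays of replicate 1 were above 0 and both of replicate 2 below, and the mean was -0.014 ± 0.066 (adjusted p = 0.967). Its intensities lay between 1213 and 2962. For both genes of the pair, replicate 1 averaged above 0 (0.013 for Col4a1 and 0.033 for Col4a2) and replicate 2 below (-0.062 and -0.061).

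Col4a5 (chrX:138123547-138123606, plus strand) had ratios of 0.012, 0.026, -0.10 and 0.092, with the widest gap between the arrays of replicate 2. Its mean was 0.0071 ± 0.017 (adjusted p = 0.980), at intensities between 873 and 2427. Its neighbour Col4a6 (chrX:137601433-137601491, minus strand) had ratios of 0.070, -0.0064, -0.20 and -0.068. Both arrays of replicate 2 lay below those of replicate 1, and the mean was -0.051 ± 0.12 (adjusted p = 0.864), at intensities between 131 and 451. Another Col4a6 probe gave a mean of -0.016, which differed from the first by 0.035.

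Col4a4 belongs to the network best known from the kidney filter. Its brighter probe (chr1:82447879-82447938, minus strand) had ratios of -0.033, -0.018, 0.10 and -0.11. The arrays of replicate 2 fell on either side of those of replicate 1, and the mean was -0.015 ± 0.015 (adjusted p = 0.962), at intensities between 125 and 276. The other bright Col4a4 probe, whose sequence within the repeat is printed above, gave a mean of 0.036, on the other side of 0. A further Col4a4 probe was not above background on any array. Across the 5 collagen IV genes the median was -0.015 and the range -0.051 to 0.0071, with 1 above and 4 below 0.

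Col7a1 encodes the chain of anchoring fibrils, a product mainly of keratinocytes. Its probe (chr9:108886861-108886920, plus strand) stood at 266 to 701 times the negative control median. The intensities of 15p and 0p RNA were 33436 and 14520 in the first array of replicate 1 and 14571 and 31570 in the swapped one. In replicate 2 they were 24964 and 19995, then 19177 and 31699. On every array the channel that held Cy5 was the brighter, before the loess step that removes the trend of all spots with intensity.

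After that step the ratios of 15p over 0p of Col7a1 were -0.31, 0.29, -0.41 and 0.23. They were low where 15p RNA carried Cy5 and high where it carried Cy3, with no overlap between the orientations. Averaging each swap left -0.011 in replicate 1 and -0.093 in replicate 2, a mean of -0.052 ± 0.057 (95% interval -0.18 to 0.071, adjusted p = 0.851). The part that followed the dye was -0.31 ± 0.014 as log2 of Cy5 over Cy3 (adjusted p = 0.0152, limma). With Agilent's processed signals it was -0.25 and not called (adjusted p = 0.289). Its sign depended on the scaling: it was 0.37 with median centring in place of loess, under which the median of all genes' dye part also moved, from 0.0066 to 0.36. A single array of this gene, read alone, would thus have shown a log2 ratio 0.23 or more from 0 that its swapped partner reversed.

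Col18a1, a multiplexin of epithelial and vascular basement membranes whose end fragment is endostatin, was read by a probe at chr10:76515790-76515849 (minus strand). Its intensities were between 18388 and 65212, or 377 to 1286 times the negative control median, and no spot was saturated. The ratios were 0.092, -0.066, -0.12 and -0.059, above 0 on 1 array. The mean was -0.039 ± 0.074 (adjusted p = 0.887). Another Col18a1 probe gave -0.0096, a difference of 0.029.

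Col12a1 showed the largest ratio of the 16. It encodes a long fibril-associated chain of dense connective tissue. The ratios at its probe (chr9:79446895-79446954, minus strand) were 0.016, 0.062, 0.24 and 0.14. All 4 lay above 0, and both of replicate 2 exceeded both of replicate 1. The mean was 0.11 ± 0.11, a 1.08-fold ratio (95% interval 0.988 to 1.19), with an adjusted p of 0.750. In a fit that, unlike the reported one, took arrays as separate units, leaving out the replicate 1 array with 15p in Cy5 gave 0.17. Without the replicate 2 array with the same labelling the ratio was 0.058, and replicate 1 alone gave 0.039. The probe was dim, at 74.2 to 114 in intensity and 1.46 to 2.23 times the negative control median.

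Col3a1, the chain of the thin fibrils that accompany collagen I, also had 4 ratios above 0. They were 0.053, 0.061, 0.031 and 0.21 (chr1:45405589-45405648, plus strand), with the highest on the replicate 2 array with 15p in Cy3. The mean was 0.088 ± 0.044 (adjusted p = 0.776). This probe was dim too, at 74.8 to 141 in intensity and 1.58 to 2.63 times the control median. One sign on all 4 arrays was thus seen for 2 of 16 collagens (12.5%), against 6.78% of all genes.

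Col16a1 is a fibril-associated chain found near the dermal-epidermal junction. The ratios at its brightest probe (chr4:129776333-129776392, plus strand) were 0.0024, 0.23, -0.12 and 0.17. Both arrays with 15p in Cy3 lay above both with 15p in Cy5. The mean was 0.069 ± 0.063 (adjusted p = 0.823), and another bright Col16a1 probe gave 0.071, a difference of 0.0020. Its dye part was -0.13 (adjusted p = 0.576).

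Col2a1, the fibril chain of cartilage, was detected on all 4 arrays at intensities of 609 to 1702 although the chondrocyte markers were near background. The ratios at its probe (chr15:97806071-97806130, minus strand) were 0.19, -0.21, 0.43 and -0.17. Both arrays with 15p in Cy5 were above 0 and both with 15p in Cy3 below, the opposite order to Col7a1. The mean was 0.059 ± 0.096 (adjusted p = 0.840), and the dye part was 0.25 (adjusted p = 0.0919, limma). That dye part was called by limma at 0.64 with median centring (adjusted p = 5.1e-05), and at 0.25 when dim probes were kept (adjusted p = 0.0295). With median centring the median dye part of all genes was 0.36, and 10081 of 17376 genes had a called one.

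The other 5 tested chains had means between -0.034 and 0.034. Col9a2 and Col9a3, chains of collagen IX that coat cartilage fibrils, had means of -0.0096 ± 0.077 and 0.034 ± 0.065. Col22a1, a fibril-associated chain of tissue junctions, had a mean of 0.016 ± 0.081 and Col8a1, a network-forming chain of vessels and eye, -0.034 ± 0.024. Col6a1, a chain of beaded microfilaments, had a mean of 0.015 with the largest SD of the 16, 0.21. Its ratios were 0.22, 0.11, -0.12 and -0.15, above 0 on both arrays of replicate 1 and below on both of replicate 2. The adjusted p-values of these 5 genes were 0.897 or above. By class, the 5 fibril-associated chains had a median of 0.034 with 4 above 0, and the 2 fibril-forming chains stood at 0.059 and 0.088.

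Single arrays thus moved more than the means. The arrays' median over the 16 collagens was 0.029, 0.0098, -0.092 and 0.018 in the order above, and 12, 8, 6 and 9 of the 16 lay above 0. The replicate 2 array with 15p in Cy5 had the widest spread, with an SD of 0.19 over the collagens and 0.29 over all genes, against 0.12 to 0.14 for both on the other 3. It held the ratio farthest from 0 for 8 of the 16 collagens (50%) and for 56.8% of all genes. In 3 of 16 collagens (18.8%), Col2a1, Col7a1 and Col9a3, the ratio of Cy5 over Cy3 had one sign on all 4 arrays, against 32.3% of all genes. The dye part was called for 1 collagen, Col7a1, which was lower in Cy5, as were 1.25% of all genes. In either direction the dye part was called for 3.8% of all genes. Its median size was 0.041 over the 16 collagens and 0.075 over all genes.

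**Figure D3:**
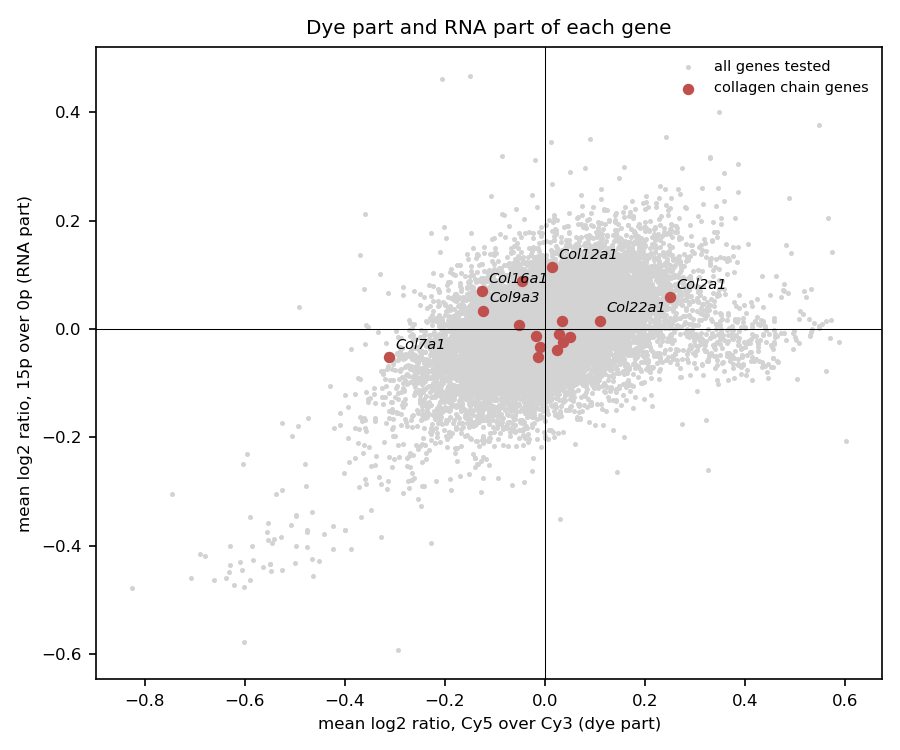
Mean log2 ratio of Cy5 over Cy3 (x axis, the dye part) and of 15p over 0p (y axis, the RNA part) for 17376 genes in grey and the 16 tested collagen chain genes in red. The collagens spread from -0.31 (Col7a1) to 0.25 (Col2a1) along the dye axis and from -0.052 to 0.11 along the RNA axis.

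The genes that make, export, process and bind collagen were read in the same fit. On 7 lists of such genes, 103 were measured, 71 were tested and 0 were called, with 39 above and 32 below 0, a median of 0.011 and a lowest adjusted p of 0.749. An unadjusted p under 0.05 was reached by 3 of the 71, against 6.31% of all genes. Between the 5th and 95th percentile of all genes, -0.12 and 0.12, lay 64 of the 71 (90.1%), against 90% of all genes by construction.

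Prolines and lysines of new chains are hydroxylated in the endoplasmic reticulum, and some hydroxylysines then carry sugars. Of 15 genes of these steps 13 were tested, with a median of 0.033, a range of -0.036 to 0.16 and 9 above 0. Colgalt1, which adds galactose, stood at 0.16 ± 0.099 and Ppib, an isomerase that speeds helix folding, at 0.16 ± 0.090, both with an adjusted p of 0.749 in limma. P4ha1, a subunit of prolyl 4-hydroxylase, stood at 0.011 ± 0.012 and Plod2, a lysyl hydroxylase, at 0.033 ± 0.063.

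Folding and export of the bulky trimers use their own chaperones and large transport carriers. Of 12 such genes 10 were tested, with a median of -0.014 and a range of -0.10 to 0.044. Klhl12, which helps to enlarge the carriers, stood at -0.10 ± 0.12 and Mia2, a receptor at export sites, at -0.092 ± 0.018, with adjusted p-values of 0.759 and 0.765. Serpinh1, the collagen chaperone HSP47, passed the background flag once in each RNA and was not tested.

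Outside the cell, propeptides are cut off and chains are crosslinked. Of 16 such genes 9 were tested, with a median of 0.017 and a range of -0.11 to 0.064. Loxl4, a lysyl oxidase of this family, stood at -0.11 ± 0.13 and Furin, a convertase that activates several of the processing enzymes, at 0.064 ± 0.040, with adjusted p-values of 0.764 and 0.831. Lox itself stayed below the background mark on each array.

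Basement membrane partners of collagen IV include laminins, nidogens and perlecan. Of 22 such genes 15 were tested, with a median of -0.0094, a range of -0.11 to 0.14 and 7 above 0. Fbln1, a matrix glycoprotein, stood at 0.14 ± 0.17 and Hspg2, which encodes perlecan, at 0.13 ± 0.056, both with an adjusted p of 0.749. Proteoglycans and glycoproteins that bind fibrils were tested for 6 of 15, with a median of -0.018. Among them Fn1, which encodes fibronectin, stood at -0.096 ± 0.098 and Bgn, a small proteoglycan, at 0.064 ± 0.089, with adjusted p-values of 0.772 and 0.834.

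Collagen receptors were tested for 6 of 11, with a median of 0.019. Itga10, the alpha chain of a collagen-binding integrin, stood at 0.10 ± 0.052 and Itgb1, the beta chain of all of these integrins, at -0.065 ± 0.13, with adjusted p-values of 0.752 and 0.837. Regulators of collagen transcription were all tested, 12 of 12, with a median of 0.022 and a range of -0.066 to 0.12. Tgfb1, a growth factor that raises collagen transcription in fibroblasts, stood at 0.12 ± 0.083 and Ski, a repressor of its Smad signals, at 0.12 ± 0.090, both with an adjusted p of 0.749. In each replicate both genes were above 0 with 15p in Cy5 and below 0 with 15p in Cy3. Their dye parts were 0.27 for Tgfb1 (adjusted p = 0.0550 in limma) and 0.38 for Ski (adjusted p = 0.00101).

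**Figure D4:**
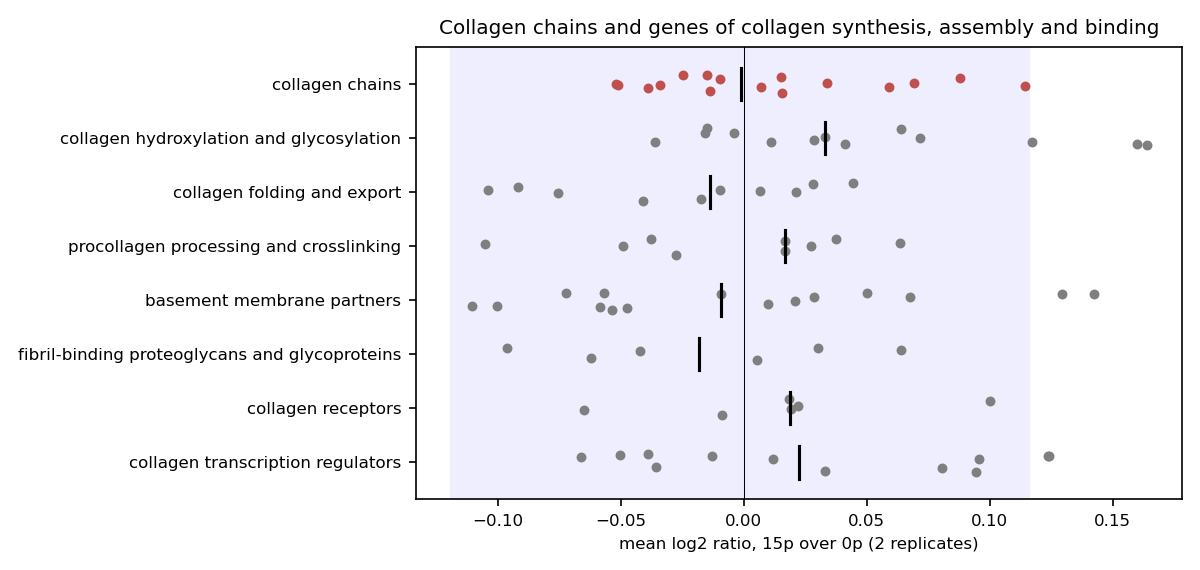
Mean log2 ratio of 15p over 0p (x axis, 2 replicates) of tested genes, one point per gene, for the collagen chains in red and 7 lists of collagen-related genes in grey, each with its median as a black bar; points are jittered vertically, and the shaded band spans the 5th to 95th percentile of all genes tested. The 16 collagens lie within the band, from -0.052 to 0.11.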

How the data were processed

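RNA of 15p and 0p cells was compared on 4 Agilent 2-colour arrays. The deposited array files give, for each dye, mean spot intensity and local background intensity, made with Agilent Feature Extraction 10.7.3.1 per the file headers. Processed intensity and the log10 ratio of Cy5 over Cy3, background-subtracted and dye-normalised per the file headers, and the deposited series-wide values of the same log10 ratios served as alternatives. The other columns used are flags of 0 or 1, per the file headers. Directions came from the dyes in the labels.

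Intensities were corrected with normexp (offset 50) and loess in limma 3.58.1 (R 4.3.3, with the data.table package, version 1.17.8), which gave log2 ratios from the deposited intensity. Control spots had weight 0, flagged spots (154 to 286 an array) were left out, and spots of a probe were averaged. Probes flagged well above background on 4 of 4 arrays in at least 1 RNA were kept (21677 probes), and the brightest stood for its gene. Symbols were updated through RefSeq accessions (GRCm38.p6), matched for 26055 of 39429 probes, 3358 under another symbol. Swapped pairs were averaged and the 2 replicate values tested against 0 with lmFit and eBayes (residual degrees of freedom 1, prior 8.88), two-sided, with Benjamini-Hochberg adjustment at 0.05. The dye part is the mean Cy5 over Cy3 ratio in the same fit. The fit was tested on simulated data.

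The members and lists were chosen with earlier results of these data known. Full values are given for tested chains of collagens IV, VII and XVIII and the 4 other chains with the largest mean ratios, and up to 2 genes of each other list with the largest ratios. Those of P4ha1, Plod2, Serpinh1, Lox, Krt5, Krt14, Itga6 and Cd34 are always given. The replicates lay on different slides, and the effects of slide and replicate cannot be told apart. Deviations of same-numbered arrays from their orientation's mean correlated at -0.26 across genes; same-numbered arrays are a dye swap of one RNA pair by the labels.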

Additional observations from a re-analysis of the deposited data

Results flagged for a closer look

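In 3 collagen genes both arrays with 15p in Cy5 moved one way and both with 15p in Cy3 the other, as the ratio of Cy5 over Cy3 had one sign on all 4 arrays. For Col7a1 the mean log2 ratio of Cy5 over Cy3 was -0.312, with an adjusted p of 0.0152 in limma. For Col2a1 it was 0.25, with an adjusted p of 0.0919, and it was called at 0.64 with median centring (adjusted p = 5.1e-05 in limma) and at 0.25 when dim probes were kept (adjusted p = 0.0295). Median centring moved the median of all genes to 0.36, and 10081 of 17376 genes were then called for the dye. For Col9a3 it was -0.124, with an adjusted p of 0.585, and it ran from -0.26 with Agilent's processed signals to -0.042 with median centring. The same pattern was seen in 32.3% of all genes tested.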

How the results depend on the processing

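Of 15 alternatives for the number of collagens called between 15p and 0p, 14 gave 0. Fits that left out a single array took the remaining arrays as separate units with a shared dye term, unlike the reported fit. Their counts are thus not like for like with it. Without the Cy5-labelled 15p array of replicate 1 the prior degrees of freedom were infinite, in place of 8.88, so all genes took a shared variance. With the Cy5-labelled 15p array of replicate 1 left out, the number was 1, Col12a1 (0.17, adjusted p = 0.0436 in limma), so leaving out single arrays gave 0 to 1. Over all genes the count was 0 in 11 of 15 alternatives and 1 without the filter on dim probes; leaving out single arrays gave 0 to 3120 (3120 without that array, 88 without its counterpart in replicate 2), and the cause was not tested. The replicate block with a dye term per replicate gave the same values as the reported fit, with 0 genes called and a collagen median of -0.0013. Without it, all 4 arrays as separate units gave 0 called and 323 genes at an unadjusted p under 0.05, in place of 1096. The collagen median ran from -0.013 (Agilent's processed signals and the value table) to 0.016 over all alternatives. It was 0.015 with median centring, and -0.0060 to 0.016 when an array or a replicate was left out (0.013 without replicate 2, 0.016 without the Cy5-labelled 15p array of replicate 2). Collagens with a called dye part numbered 0 with Agilent's processed signals and with the value table, 7 with median centring and 2 without the filter. All genes with one numbered 253, 259, 10081 (10045 higher and 36 lower in Cy5) and 1435 in the same order, in place of 661 (443 higher and 218 lower). The dye part of Col7a1 was 0.37 with median centring, against -0.31. Col1a1 and Col1a2 were too near background to be tested in the reported fit.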
